A study of Mus musculus with 14 samples.

Results

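The serum amyloid A family consists of small apolipoproteins that the liver secretes during the acute-phase response and that travel in blood on high-density lipoprotein (HDL). In the mouse, Saa1 and Saa2 encode the major inducible serum forms, from among which reactive (AA) amyloid is derived. Saa3 is an inducible form that macrophages and fat cells also make, and Saa4 is known as the constitutive form. Interleukin-6, interleukin-1 and tumour necrosis factor are known to switch on the inducible genes in hepatocytes through STAT3, NF-kB and C/EBP transcription factors. All 4 family members, chosen by gene symbol, were among the 17656 genes listed for each of 14 liver RNA-seq libraries, and all 4 passed the filter on low values in every comparison.

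The mice were 8-week-old C57BL/6 animals, either wildtype littermates (WT) or carriers of a whole-body CRISPR/Cas9 deletion in Ythdf1 (KO), the gene of a cytoplasmic reader of N6-methyladenosine in RNA. They received a tail-vein injection of saline (3 WT and 3 KO mice) or of 8 mg/kg concanavalin A (ConA, 4 WT and 4 KO mice), a plant lectin that activates T cells and injures the liver, and whole livers were taken at 8 h. The labels describe the libraries of a group as biological replicates, and name no batch. Levels are TPM, the length-corrected share of a gene among a library's transcripts, scaled to a total of 1000000. A gene was called where limma on log2(TPM + 1) gave a Benjamini-Hochberg adjusted p under 0.05 over all genes tested.

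The series as a whole sets 3 limits on what follows. Ythdf1 itself lay between 12.0 and 13.9 TPM in WT saline livers and between 18.4 and 20.8 TPM in those of KO mice, and after ConA between 18.7 and 25.6 TPM (WT) and between 15.5 and 26.2 TPM (KO). In saline livers this level was higher in KO and after ConA the ranges overlapped, so it does not check the genotype labels, which were taken as given. WT saline replicates 2 and 3 were nearly identical (median size of the log2 ratio 0.0644 over expressed genes, where the other 17 within-group pairs had 0.115 to 0.401), and TPM values cannot show whether they are separate mice or 1 sample measured again. They count as 2 of the 3 WT saline samples in what follows, and the calls of family members between the genotypes in saline livers and in the interaction are also given with these libraries averaged into 1. On the second principal component the ConA libraries numbered 3 lay apart from the other ConA libraries of their genotype, and leaving out both of them changed no call of a family member.

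The family lies within 42316 bases of chromosome 7 (GRCm38.p6, 46711998 to 46754313). By RefSeq, Saa3 (46711998 to 46719615), Saa4 (46727992 to 46732603) and Saa1 (46740497 to 46743181) are read from the minus strand, and Saa2 (46751833 to 46754313) from the plus strand. Saa1 and Saa2 thus stand head to head, with 8651 bases between their records. Each gene has 4 exons in its first-listed GENCODE transcript. RefSeq carries Saa2 as a synonym of Saa1 and Saa1 as a synonym of Saa2, so the names here follow the gene IDs of the deposited tables (20208 for Saa1, 20209 for Saa2, 20210 for Saa3 and 20211 for Saa4).

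The promoters are shown because 3 of the members rose together after ConA while Saa4, in the same cluster, was not called. Each RefSeq window runs 5′ to 3′ from 250 bases before to 50 bases after the start used in the RefSeq promoter table, on GRCm38.p6 (chr7:46742931-46743230, minus strand, for Saa1, chr7:46751583-46751882, plus strand, for Saa2, chr7:46715627-46715926, minus strand, for Saa3 and chr7:46732554-46732853, minus strand, for Saa4). For Saa1 and Saa3 that start lies inside the longer gene record given above. Capitals mark matches, on either strand, to the 10-letter NF-kB consensus and to the C/EBP pattern TTNNGNAA.
Saa1: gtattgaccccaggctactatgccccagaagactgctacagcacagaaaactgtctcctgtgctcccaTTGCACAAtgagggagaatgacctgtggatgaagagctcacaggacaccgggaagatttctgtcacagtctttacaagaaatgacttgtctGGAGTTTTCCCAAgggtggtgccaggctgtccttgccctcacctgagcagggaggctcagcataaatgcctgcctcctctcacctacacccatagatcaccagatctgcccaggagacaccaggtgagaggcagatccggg
Saa2: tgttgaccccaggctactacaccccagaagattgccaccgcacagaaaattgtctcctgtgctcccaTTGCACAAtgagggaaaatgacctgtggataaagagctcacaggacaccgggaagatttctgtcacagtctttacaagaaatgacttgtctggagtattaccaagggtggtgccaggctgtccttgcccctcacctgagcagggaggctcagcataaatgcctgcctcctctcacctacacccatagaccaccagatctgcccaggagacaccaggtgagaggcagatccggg
Saa3: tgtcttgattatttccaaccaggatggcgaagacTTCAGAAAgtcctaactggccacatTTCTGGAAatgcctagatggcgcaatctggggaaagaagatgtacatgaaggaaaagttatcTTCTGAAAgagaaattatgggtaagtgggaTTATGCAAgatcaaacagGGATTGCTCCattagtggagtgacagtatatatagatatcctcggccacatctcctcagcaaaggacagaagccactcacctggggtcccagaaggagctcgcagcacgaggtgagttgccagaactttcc
Saa4: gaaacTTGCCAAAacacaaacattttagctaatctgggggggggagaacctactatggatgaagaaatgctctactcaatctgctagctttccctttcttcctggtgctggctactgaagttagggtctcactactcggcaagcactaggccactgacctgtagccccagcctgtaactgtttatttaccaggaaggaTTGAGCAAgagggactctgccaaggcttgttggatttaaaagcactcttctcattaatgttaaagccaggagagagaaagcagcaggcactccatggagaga

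The Saa1 and Saa2 windows were the same at 287 of 300 aligned positions (95.7%), whereas every other pair of windows was the same at 53.1% to 55.0% of aligned positions. Overhanging ends were left out, and these other alignments ran from 138 (Saa1 and Saa4) to 350 positions (Saa1 and Saa3), gaps included. The percentages are thus not over equal lengths. The NF-kB letters were found in Saa1 (GGAGTTTTCC, starting 91 bases before the start) and in Saa3 (GGATTGCTCC, starting 81 bases before it). The Saa2 bases aligned to the Saa1 match read GGAGTATTAC, differ from it at 2 positions and fell outside the pattern. The C/EBP letters occurred in all 4 windows, with 2 matches in Saa1, 1 in Saa2, 4 in Saa3 and 2 in Saa4, and 1 of the Saa1 matches overlapped the NF-kB match, so both are capitalised there as a single run. The STAT pattern TTCNNNGAA was found in 0 of the 4 windows. Of 32851 RefSeq promoters of the same length, 26.8% held the NF-kB letters, 40.7% the C/EBP letters and 8.30% the STAT letters, so these matches are a description of the letters and say nothing of binding.

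Saa1 and Saa2 also resemble each other as transcripts, which bears on how far their levels can be separated. Their GENCODE transcripts were the same at 572 of 609 aligned positions (93.9%), against 60.2% to 68.9% for the other pairs. Overhanging ends were left out here too, and the other pairs aligned over 576 to 694 positions. Of the 50-base stretches (the read length) of each transcript, 85.2% of Saa1, 86.7% of Saa2, 98.2% of Saa3 and 98.6% of Saa4 were found in no other gene. Saa1 shared 74 of its 560 stretches with Saa2 and 9 with Saa3. How shared reads were assigned is not settled by the sources, so the levels of Saa1 and Saa2 are each uncertain by their shared part.

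In saline livers the family was a minor part of the transcript pool, and Saa4 was its most abundant member in every mouse. In WT saline livers the mean level was 363 ± 106 TPM (SD, n = 3) for Saa4, 225 ± 124 TPM for Saa1, 123 ± 27.5 TPM for Saa2 and 47.0 ± 6.50 TPM for Saa3. The ranges of Saa4 and Saa1 overlapped, as did those of Saa1 and Saa2, while Saa3 lay below the other members. In KO saline livers the mean level was 187 ± 31.4 TPM (SD, n = 3) for Saa4, 80.2 ± 37.8 TPM for Saa1, 71.4 ± 22.4 TPM for Saa3 and 58.8 ± 16.2 TPM for Saa2. Here Saa4 stood above the rest, and the ranges of the 3 inducible members overlapped.

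**Figure D1:**
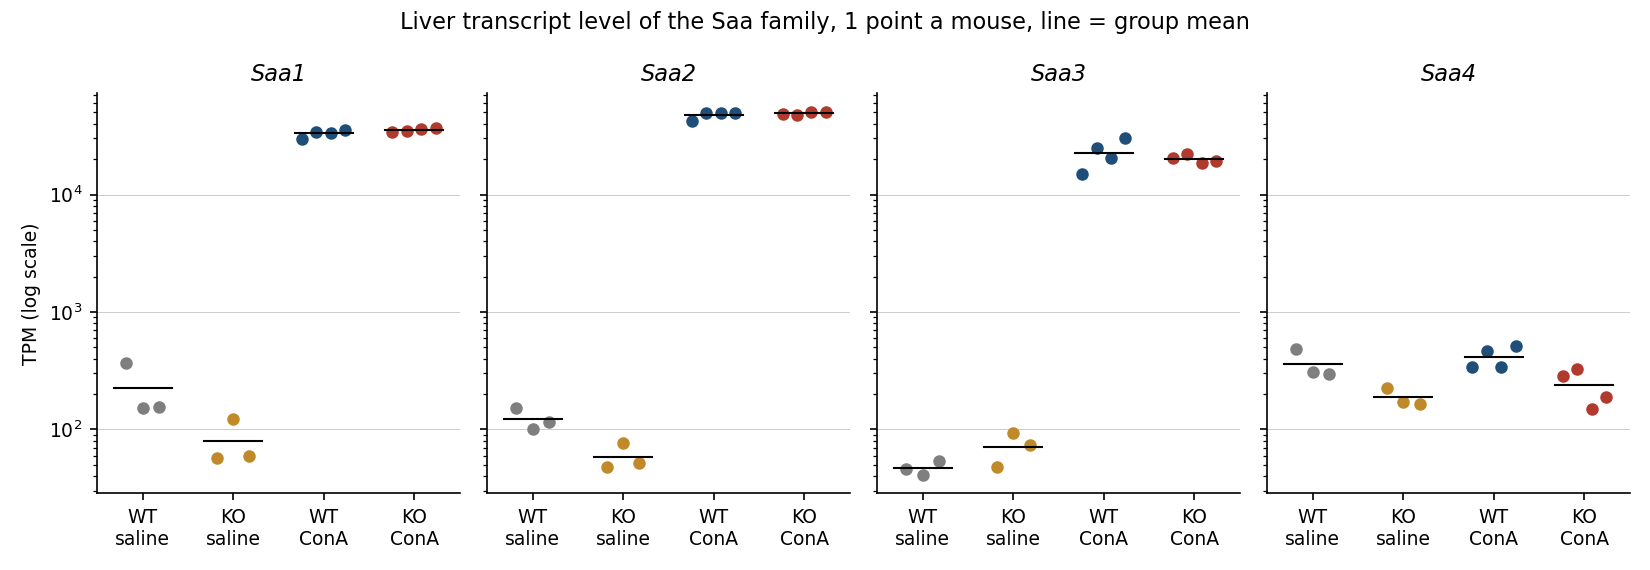
TPM on a log scale of Saa1, Saa2, Saa3 and Saa4 in 14 livers, 1 point per mouse, with the group mean as a line. Saa1, Saa2 and Saa3 sit at 41.0 to 369 TPM in the saline livers and at 14932 to 50748 TPM in the ConA livers, whereas Saa4 stays between 151 and 518 TPM in all 14.

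At 8 h after ConA, Saa1, Saa2 and Saa3 stood 147- to 483-fold higher than after saline in WT livers, and Saa4 was not called different. Saa1, an HDL-borne acute-phase protein, read 369, 151 and 156 TPM in the 3 WT saline livers and 29535, 34124, 33303 and 35401 TPM in the 4 WT ConA livers. The ratio of the group means was 147, and the log2 fold change was 7.32 ± 0.28 (SE, adjusted p = 2.8e-07). Every ConA liver lay far above every saline liver, and replicate 1 was the highest of the saline group and the lowest of the ConA group.

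Saa2, the close paralog of Saa1, read 154, 101 and 115 TPM in WT saline livers and 42234, 49127, 49234 and 49917 TPM in WT ConA livers. The means differed 387-fold, with a log2 fold change of 8.60 ± 0.16 (SE, adjusted p = 8.7e-09), and 3 of the 4 ConA livers lay within a narrow band above replicate 1. Saa3, the member that macrophages also express, read 46.2, 41.0 and 53.9 TPM in WT saline livers and 14932, 24824, 20659 and 30461 TPM in WT ConA livers. Its means differed 483-fold, with a log2 fold change of 8.85 ± 0.23 (SE, adjusted p = 3.4e-08), and its ConA livers were more widely spread than those of Saa1 or Saa2. By the size of the fitted rise, Saa3 ranked 1, Saa2 ranked 2 and Saa1 ranked 7 among 10768 genes tested.

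Saa4, the constitutive form, read 485, 305 and 298 TPM in WT saline livers and 338, 467, 340 and 518 TPM in WT ConA livers. The groups overlapped, and the log2 fold change was 0.21 with a 95% interval of -0.29 to 0.71 (adjusted p = 0.460), so a rise of more than 0.71 or a fall of more than 0.29 on the log2 scale lay outside the interval. In this comparison 22.0% of all tested genes were called higher and 31.0% lower, and in 23.3% of them every ConA liver lay above every saline liver, as it did for Saa1, Saa2 and Saa3. In bulk liver, fewer cells of a type and less RNA per cell cannot be told apart.

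In KO livers Saa1, Saa2 and Saa3 also rose. Saa1 read 56.8, 124 and 59.9 TPM in KO saline livers and 34310, 34423, 36438 and 36585 TPM in KO ConA livers, a 442-fold ratio of means and a log2 fold change of 8.86 ± 0.23 (SE, adjusted p = 5.5e-10). Saa2 read 47.8, 77.4 and 51.4 TPM in KO saline livers and 48570, 47863, 50406 and 50748 TPM in KO ConA livers. Its ratio of means was 840, and its log2 fold change was 9.72 ± 0.17 (SE, adjusted p = 3.7e-11). For both genes the highest saline liver was replicate 2, and the ConA livers differed little from each other.

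Saa3 read 48.2, 92.9 and 73.0 TPM in KO saline livers and 20390, 21948, 18685 and 19126 TPM in KO ConA livers, a 281-fold ratio of means and a log2 fold change of 8.16 ± 0.19 (SE, adjusted p = 3.8e-10). Saa2 ranked 1, Saa1 ranked 3 and Saa3 ranked 6 by rise among 10988 genes tested. Saa4 read 223, 172 and 166 TPM in KO saline livers and 286, 327, 151 and 187 TPM in KO ConA livers, and the groups overlapped (log2 fold change 0.29, 95% interval -0.25 to 0.83, adjusted p = 0.319). Of all tested genes 33.9% were called higher and 30.7% lower, and in 32.8% every KO ConA liver lay above every KO saline liver, as in Saa1, Saa2 and Saa3.

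**Figure D2:**
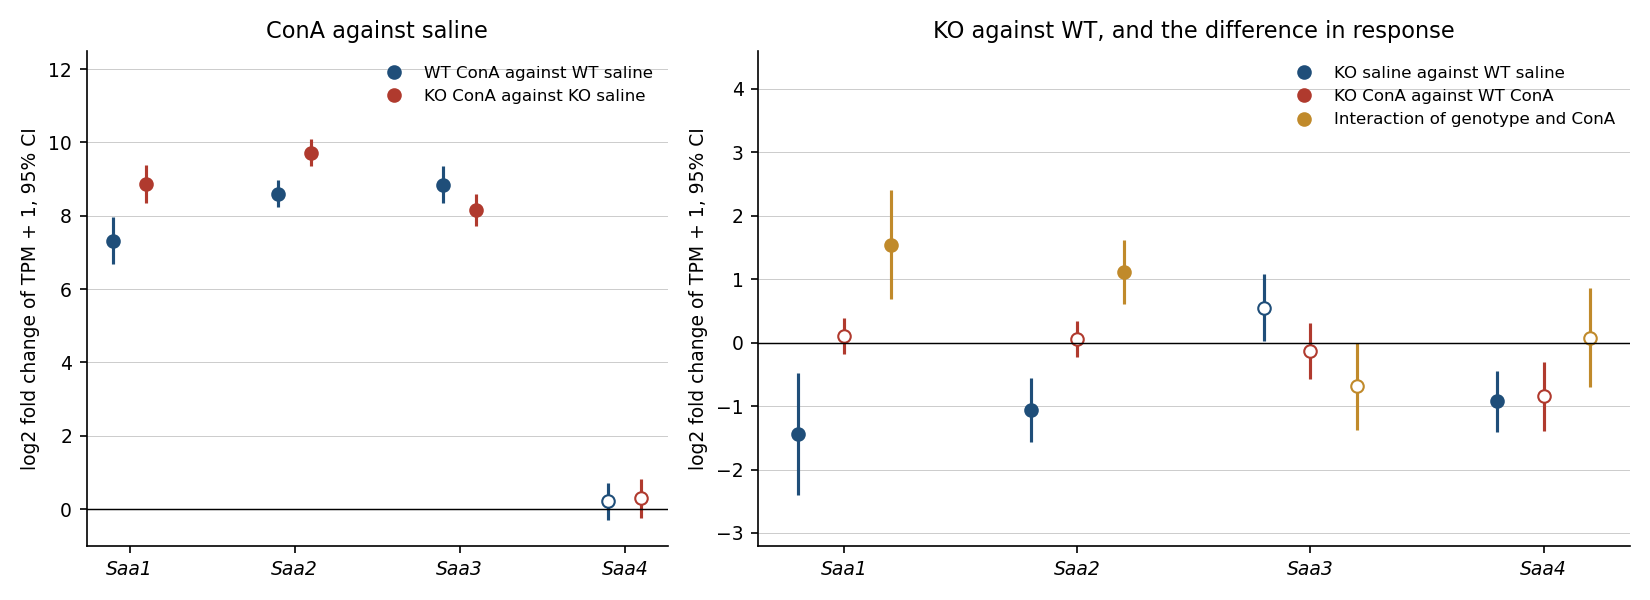
Log2 fold changes of TPM + 1 with 95% confidence intervals for the 4 members, ConA against saline on the left and the 3 contrasts that involve genotype on the right. Filled points were called (adjusted p under 0.05) and open points were not; Saa1, Saa2 and Saa3 lie between 7.32 and 9.72 after ConA, while Saa4 lies at 0.21 and 0.29.

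The family as a whole went from a trace to a large share of the liver's transcripts. Summed over the 4 members, it made up 0.0598% to 0.105% of a library in WT saline livers and 0.0350% to 0.0467% in KO saline livers. After ConA it made up 8.70% to 11.6% in WT livers (10.4% ± 1.24, SD, n = 4) and 10.4% to 10.7% in KO livers (10.5% ± 0.134, SD, n = 4). The 2 ConA groups overlapped, and the WT livers were the more widely spread. Ranked by TPM among all genes, Saa2 ranked 1 or 2 in each WT ConA liver and 1 in each KO ConA liver, Saa1 ranked 2 or 3, and Saa3 ranked 4 to 10. Since TPM values share a fixed total, a rise of this size lowers every other value. With the 4 members taken out of the total, the median log2 fold change of all genes moved from -0.07 to 0.06 for WT livers and, for KO livers, from 0.07 to 0.21, and no member's call changed.

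The make-up of the family changed with ConA. Saa4 supplied 46.0% to 51.1% of the family's TPM in WT saline livers and 37.0% to 59.4% in KO saline livers, but after ConA it supplied 0.328% to 0.446% (WT) and 0.142% to 0.313% (KO). Saa2 became the main member, with 42.9% to 48.5% (WT) and 45.8% to 47.7% (KO). Saa1 supplied 30.4% to 33.9% and 32.9% to 34.5%, and Saa3 17.2% to 26.2% and 17.7% to 21.0%, in the WT and KO ConA livers. Thus the order of the members after ConA was Saa2, Saa1, Saa3 and Saa4 in each of the 8 livers. By TPM, no neighbouring ranges in that order overlapped in KO ConA livers, whereas in WT ConA livers those of Saa1 and Saa3 did. As shares of the family, Saa1 and Saa3 did not overlap in either genotype.

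**Figure D3:**
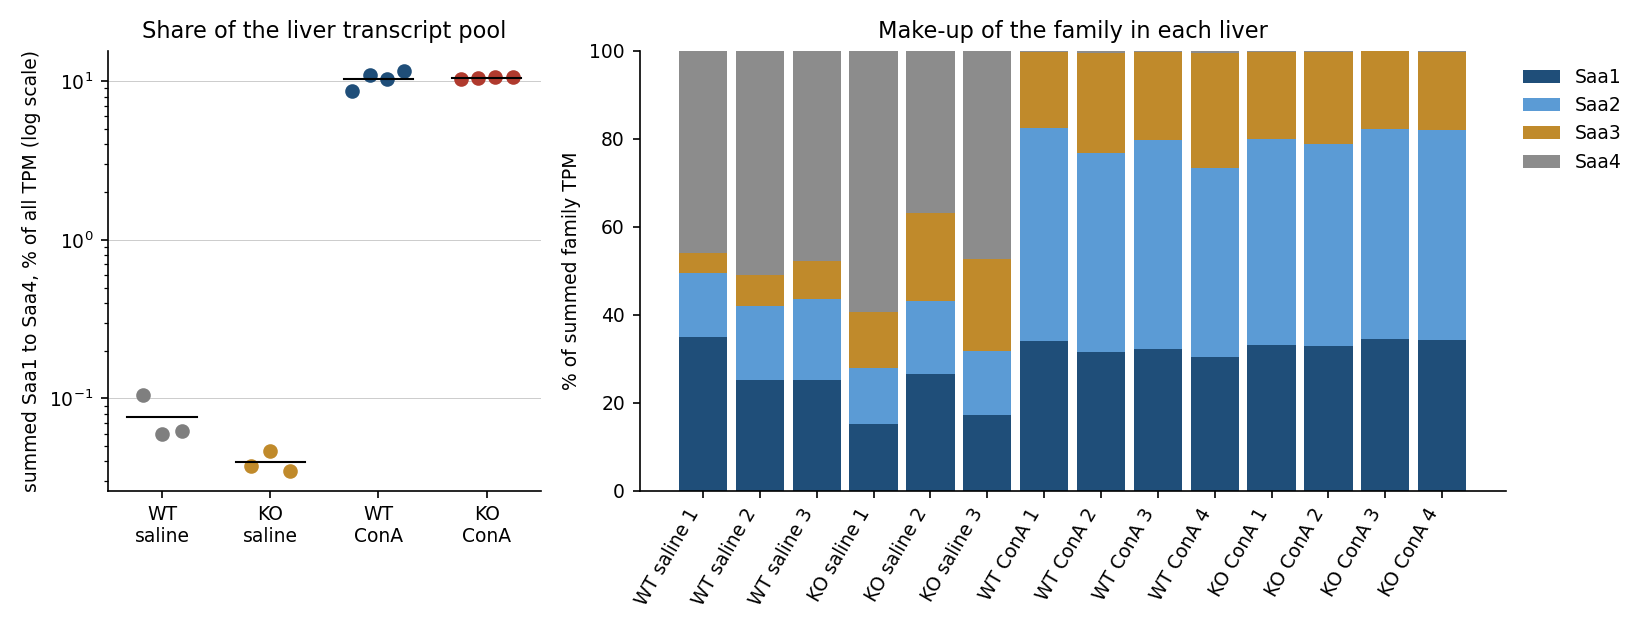
Left, the summed TPM of Saa1 to Saa4 as a percentage of each library on a log scale, 1 point per mouse with the group mean as a line. Right, bars from 0 to 100% with each member's share of the family in each liver; Saa4 supplies 37.0% to 59.4% in saline livers and under 0.446% after ConA, where Saa2 is the main member.

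The balance between the paralogs Saa1 and Saa2 also turned over. The ratio of Saa2 TPM to Saa1 TPM was 0.417, 0.667 and 0.735 in WT saline livers and 0.841, 0.625 and 0.857 in KO saline livers, below 1 in all 6. After ConA it was 1.41 to 1.48 (WT) and 1.38 to 1.42 (KO), above 1 in all 8 livers, and the SD fell from 0.167 and 0.130 in the saline groups to 0.0287 and 0.0146 in the ConA groups (WT and KO). The ratio of Saa3 to Saa1 was 0.125 to 0.345 (WT) and 0.750 to 1.22 (KO) after saline, and 0.506 to 0.860 (WT) and 0.513 to 0.638 (KO) after ConA. The WT and KO saline groups did not overlap in this ratio, and the ConA groups did. These ratios are descriptions, and the Saa2 to Saa1 ratio depends on how reads common to both genes were assigned.

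**Figure D4:**
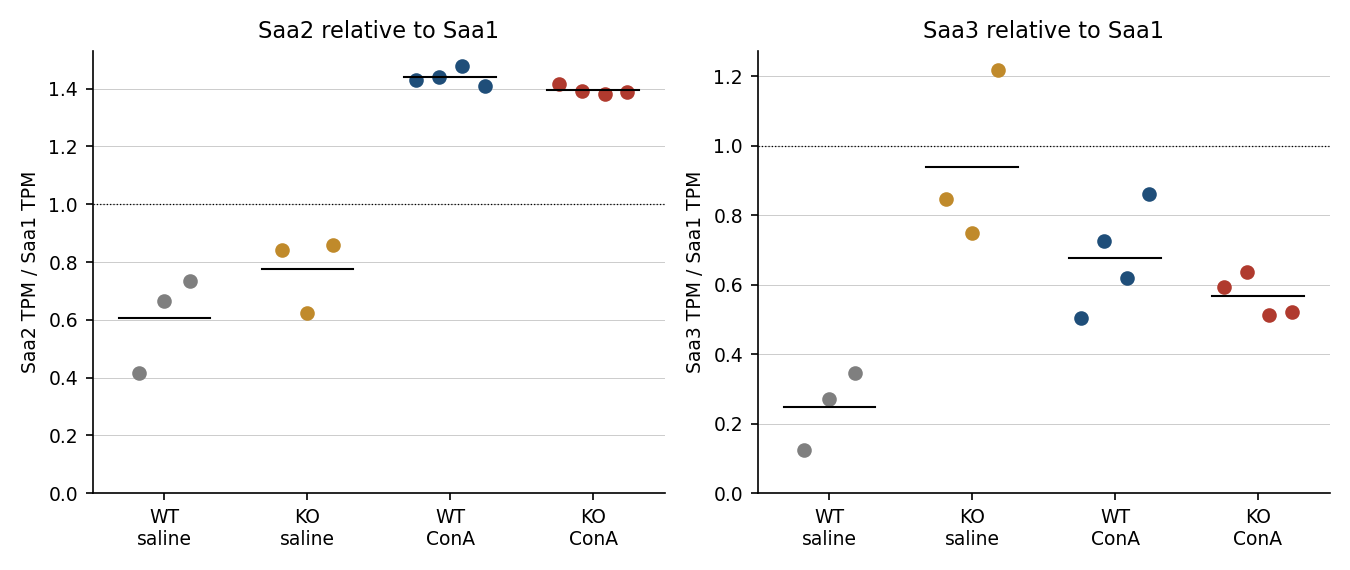
Ratios of TPM within each liver, Saa2 to Saa1 on the left and Saa3 to Saa1 on the right, with 1 point per mouse, the group mean as a line and a dotted line at 1. Saa2 to Saa1 lies at 0.417 to 0.857 in saline livers and at 1.38 to 1.48 in ConA livers.

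Without ConA, the 3 members Saa1, Saa2 and Saa4 were called lower in KO than in WT livers. These calls ended with the near-identical WT saline libraries averaged, and under some other settings given below. The log2 fold change was -1.44 ± 0.41 for Saa1 (SE, adjusted p = 0.0477), -1.06 ± 0.22 for Saa2 (SE, adjusted p = 0.0231) and -0.93 ± 0.21 for Saa4 (SE, adjusted p = 0.0283). For each of these genes every KO saline liver lay below every WT saline liver, while 12.9% of all genes were called lower and 29.2% had groups apart in this direction. Saa3 had a log2 fold change of 0.55 ± 0.23 (SE, adjusted p = 0.118), and its groups overlapped.

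With WT saline replicates 2 and 3 averaged, none of the 4 members was called by limma in the saline comparison, and 3 of them had an unadjusted p under 0.05. The log2 fold changes became -1.65 for Saa1 (adjusted p = 0.113), -1.15 for Saa2 (adjusted p = 0.0862) and -1.04 for Saa4 (adjusted p = 0.0888). Of all genes 0.459% were then called in either direction. Leaving out WT saline replicate 2, WT saline replicate 3 or KO saline replicate 1 also ended the calls of Saa1, Saa2 and Saa4, as did fitting with no filter. Averaging leaves fewer WT saline samples in the fit, and why the calls ended was not tested.

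After ConA, no member was called different between the genotypes (limma, 1 member with an unadjusted p under 0.05), in a comparison that called 0.428% of all genes. For Saa1 the log2 fold change of KO ConA against WT ConA was 0.10 with a 95% interval of -0.18 to 0.38, and for Saa2 it was 0.06 with an interval of -0.23 to 0.34, turning to -0.03 with median ratio scaling. For Saa3 it was -0.14 with an interval of -0.58 to 0.31. The ConA groups of all 3 genes overlapped. Saa4 was the member with the lowest p: its KO ConA livers read 151 to 327 TPM and its WT ConA livers 338 to 518 TPM, without overlap, a pattern held in this direction by 4.11% of all genes. Its log2 fold change was -0.85 with a 95% interval of -1.39 to -0.30 (adjusted p = 0.125). With all 14 libraries in the fit the same difference had an adjusted p of 0.0499. Thus the KO minus WT difference of Saa4 was -0.93 after saline and -0.85 after ConA. The saline difference was called as reported and under 8 of 15 alternative settings. The ConA difference was not called as reported and was called under 1 of 17.

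The interaction of genotype and ConA, which asks whether the response differed between WT and KO livers, was called higher for Saa1 and Saa2. The rise in KO livers exceeded that in WT livers by 1.54 on the log2 scale for Saa1 (95% interval 0.68 to 2.41, adjusted p = 0.0445) and by 1.12 for Saa2 (0.61 to 1.62, adjusted p = 0.0280). For Saa3 the difference was -0.69 (-1.37 to -0.0021, adjusted p = 0.197), and for Saa4 it was 0.08 (-0.70 to 0.86, adjusted p = 0.906), or -0.06 with median ratio scaling. Of all genes 2.64% were called higher in this test. Saa1 and Saa2 had overlapping ranges in the ConA groups and separate ranges in the saline groups. With WT saline replicates 2 and 3 averaged, the differences were 1.75 for Saa1 (adjusted p = 0.0955) and 1.20 for Saa2 (adjusted p = 0.0753), so both calls ended. They also ended without WT saline replicate 2, WT saline replicate 3, KO saline replicate 1 or KO ConA replicate 4, and for Saa1 without 7 further libraries.

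Among the cytokines known to induce the family, transcripts were scarce at 8 h. Il6, the main inducer in hepatocytes, was listed at 0 in all WT saline livers and reached 0.07 to 0.21 TPM (WT) and 0.15 to 0.59 TPM (KO) after ConA, so it was not tested. In WT livers, Tnf went from at most 0.05 TPM to 3.37 to 5.64 TPM, and Il1b went from 0.88 to 1.79 TPM to 4.92 to 10.2 TPM. Ifng, the T cell cytokine, had a log2 fold change of 1.52 in WT and 2.93 in KO livers. The interaction was called for 0 of the 7 cytokine genes tested in it, so a difference in response between the genotypes was not shown. Of the cytokine genes tested, 3 of 4 were called higher and 1 lower in WT, and 3 of 5 higher and 1 lower in KO. Beside these counts and those of the lists below, 22.0% of all genes were called higher and 31.0% lower in WT livers. In KO livers these shares were 33.9% and 30.7%.

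The receptors for these cytokines were called higher in 8 of 12 cases and lower in 2 in WT livers, and higher in 9 and lower in 1 in KO livers. Il1r1, the signalling receptor of interleukin-1, rose from 11.4 to 12.7 TPM in WT saline to 81.9 to 204 TPM in WT ConA livers (log2 fold change 3.32, adjusted p = 1.2e-05). Il1r2, its decoy receptor, rose by 3.11 and Il22ra1 by 2.35 on the log2 scale, whereas Il1rap, the accessory chain of the interleukin-1 receptor, had a log2 fold change of -1.69 (adjusted p = 0.00020). Il6ra, the receptor of interleukin-6, had a log2 fold change of -0.23 in WT livers (adjusted p = 0.672) and was called higher in KO livers (1.26, adjusted p = 0.00017). Its KO livers went from 2.40 to 3.30 TPM after saline to 5.75 to 9.38 TPM after ConA, which overlapped the WT saline livers (5.88 to 7.83 TPM). The interaction was called for 0 of the 12 receptors, so a difference in response between the genotypes was not shown.

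Transcription factors and feedback genes of the acute phase were called higher in 11 of 17 tested cases and lower in 3 in WT livers, and higher in 12 and lower in 2 in KO livers. Stat3, which carries the interleukin-6 signal, rose by 1.81 in WT and 2.70 in KO livers on the log2 scale. Nfkb1, Cebpb and Cebpd, which encode NF-kB and C/EBP proteins, rose in WT livers by 1.42, 1.17 and 2.85. The largest rises in the list were those of Tnfaip3 (3.94) and Socs3 (3.31), both feedback inhibitors, and of Relb (3.38), an NF-kB subunit. The median log2 fold change of the list was 1.42 in WT and 2.04 in KO livers, beside -0.07 and 0.07 over all genes. The interaction was called higher for 1 of 17 genes of this list, beside 2.64% of all genes.

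Of the other positive acute-phase proteins, 24 of 25 were called higher in WT livers and 24 of 25 in KO livers, with a median log2 fold change of 2.38 in WT and 2.63 in KO. Lcn2, the iron-siderophore binding protein lipocalin 2, went from 53.4 to 71.1 TPM in WT saline to 11859 to 18023 TPM in WT ConA livers (log2 fold change 7.78, adjusted p = 2.9e-08). A2m rose by 5.95 and Cd14, the lipopolysaccharide co-receptor, by 5.62. In saline livers 9 of 24 were called lower in KO than in WT, among them Serpina3n (-1.27, adjusted p = 0.0042), Cd14 (-0.85) and Fga (-0.76), a fibrinogen chain. Over all genes 12.9% were called lower in this comparison. With WT saline replicates 2 and 3 averaged, 1 of 24 was called lower, beside 0.459% of all genes called in either direction. The interaction was called higher for 6 of 25, with the lowest adjusted p for Serpina3n (1.66, adjusted p = 0.00079), and with those libraries averaged for 1 of 25. As reported, the interaction was called higher for 2.64% of all genes.

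The HDL proteins, with which SAA circulates, were called lower in 9 of 13 cases and higher in 1 in WT livers, and lower in 9 and higher in 3 in KO livers. TPM values share a fixed total, within which the other positive acute-phase proteins also rose. In WT livers those proteins summed to 34548.5 to 36317.7 TPM after saline and 168709 to 191134 TPM after ConA. Their part in the lower HDL values was not tested. In WT livers Apoa1, the main HDL protein, had 15029 to 19030 TPM after saline and 6914 to 13723 TPM after ConA (log2 fold change -0.71, adjusted p = 0.0212). The summed Saa level thus exceeded that of Apoa1 in every ConA liver, and lay far below it in every saline liver. Pon1, the HDL-bound paraoxonase, had a log2 fold change of -1.22, and Abca1, the cholesterol exporter that builds HDL, was the single gene of the list called higher in WT livers (2.32, adjusted p = 0.00014).

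Of the genes for SAA receptors and clearance, 3 of 9 were called higher and 3 lower in WT livers, and 5 higher and 1 lower in KO livers. Over all genes 22.0% were called higher and 31.0% lower in WT, and 33.9% and 30.7% in KO. Counts from so few genes do not set this list apart from those shares. Tlr2, a Toll-like receptor that SAA is known to engage, rose by 5.02 in WT livers, with 0.43 to 0.83 TPM after saline and 35.1 to 64.2 TPM after ConA. Fpr2, the formyl peptide receptor for SAA, had 0.70 to 1.36 TPM after saline and 2.05 to 6.44 TPM after ConA in WT livers (1.27, adjusted p = 0.0035). Scarb1, the hepatic HDL receptor, had a log2 fold change of -0.28 in WT (adjusted p = 0.152) and was called higher in KO (0.37, adjusted p = 0.0320). Its KO livers went from 44.0 to 63.1 TPM after saline to 70.1 to 72.8 TPM after ConA, within the WT saline range (68.3 to 75.6 TPM). The interaction was called for 0 of the 9 genes of this list. Of the proteases that handle amyloid, 1 of 5 was called higher in both genotypes (Mmp9, 1.49 in WT), and 2 in WT and 1 in KO were called lower, among them Ctsb, the lysosomal cathepsin B (-0.68 in WT). These protease counts also lay near the shares of all genes. Between KO ConA and WT ConA livers, limma called 0 of the 84 tested genes of these lists, and 23 had an unadjusted p under 0.05. In that comparison 0.428% of all genes were called, so a count of 0 does not set these lists apart.

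Marker genes of cell types moved with ConA beside the family, and their part in the Saa levels was not tested. The 8 hepatocyte markers, Alb among them, summed to 111641 to 125309 TPM after saline and 57134 to 76165 TPM after ConA in WT mice, and to 100676 to 110713 and 49557 to 61020 TPM in KO mice, so hepatocyte transcripts were abundant in every library. Of these, 6 of 8 were called lower after ConA in WT livers, and in KO livers 6 were called lower and 2 higher. These sums are shares of a fixed total. Beside these and the marker counts below, 31.0% of all genes were called lower and 22.0% higher in WT livers. The KO shares were 30.7% lower and 33.9% higher. The 8 neutrophil markers summed to 9.61 to 11.5 TPM and then 326 to 577 TPM in WT mice, with 7 of 8 called higher, and to 5.30 to 10.8 and then 424 to 981 TPM in KO mice. In KO mice 7 of 8 were also called higher.

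For the other cells in which Saa3 is known, the 8 Kupffer cell markers summed to 108 to 182 TPM after saline and 19.2 to 72.5 TPM after ConA in WT mice, with 7 of 8 called lower, and to 49.9 to 114 and 15.0 to 65.8 TPM in KO mice. The KO sums after saline and after ConA overlapped, and in KO mice 3 of 8 were called lower. The 8 markers of monocytes and inflammatory macrophages summed to 38.1 to 56.6 and 33.3 to 60.7 TPM in WT mice, with 3 of 6 tested called higher and 1 lower, and to 16.9 to 44.8 and 32.5 to 111 TPM in KO mice. In KO mice 4 of 6 tested were called higher and 1 lower. Of the 4 fat cell markers, Lep and Plin1 were listed at 0 in all WT livers and all KO ConA livers, Adipoq was at most 0.20 TPM, and Cidec made up most of a sum of 1.06 to 1.25 TPM after saline and 1.97 to 7.93 TPM after ConA in WT mice. The 5 listed T cell markers summed to at most 4.29 TPM in any library.

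Beside the genotype differences of Saa1, Saa2 and Saa4 in saline livers, the summed levels of markers of other liver cells are given here, and their part was not tested either. The 5 bile duct markers summed to 46.5 to 57.0 TPM (WT) and 83.7 to 89.4 TPM (KO). Most of this sum was Spp1, with 41.1 to 53.1 TPM (WT) and 68.6 to 77.6 TPM (KO). The ranges of Krt7 were also apart, and those of Krt19, Epcam and Sox9 overlapped between the genotypes. The 5 endothelial markers summed to 12.8 to 21.0 TPM (WT) and 21.4 to 36.9 TPM (KO), and the 5 stellate cell markers to 14.9 to 59.6 TPM (WT) and 55.2 to 95.2 TPM (KO), so the stellate ranges overlapped. Most of the stellate sum was Dcn, with 13.2 to 52.9 TPM (WT) and 47.9 to 83.5 TPM (KO). The hepatocyte sum in saline livers, 111641 to 125309 TPM (WT) and 100676 to 110713 TPM (KO), was lower in KO without overlap. After ConA, where Saa4 was lower in KO livers without overlap, the bile duct sum was 18.7 to 32.1 TPM (WT) and 36.8 to 56.4 TPM (KO). Within it Spp1 read 10.7 to 23.1 TPM (WT) and 25.4 to 47.2 TPM (KO). The ranges of Epcam were also apart, and those of Krt7, Krt19 and Sox9 overlapped. The other sums overlapped between the genotypes after ConA. The endothelial sum was 11.1 to 28.3 TPM (WT) and 12.9 to 34.6 TPM (KO). The stellate sum was 20.4 to 59.3 TPM (WT) and 49.0 to 96.9 TPM (KO), and the hepatocyte sums are given above.

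Among the neighbours of the cluster, Ldha was the gene called higher in both genotypes. The tables list 7 other genes that RefSeq places within 200 kb on this stretch of chromosome 7. In WT livers Ldha, the lactate dehydrogenase A gene, had 410 to 545 TPM after saline and 1541 to 2425 TPM after ConA, and its log2 fold change was 2.06 in WT and 3.18 in KO (adjusted p = 1.6e-05 and 1.4e-07). Sergef and Gtf2h1 were called higher in KO livers only (0.86 and 1.02), a difference between genotypes that was not called by the interaction (adjusted p = 0.130 and 0.0639). Hps5 was called lower in both (-0.46 and -0.59) and Uevld in WT (-0.92). Saal1, the serum amyloid A-like 1 gene next to Saa3, was not called in WT (-0.17, adjusted p = 0.370) or in KO livers (0.20, adjusted p = 0.359), and neither was Tsg101.

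**Figure D5:**
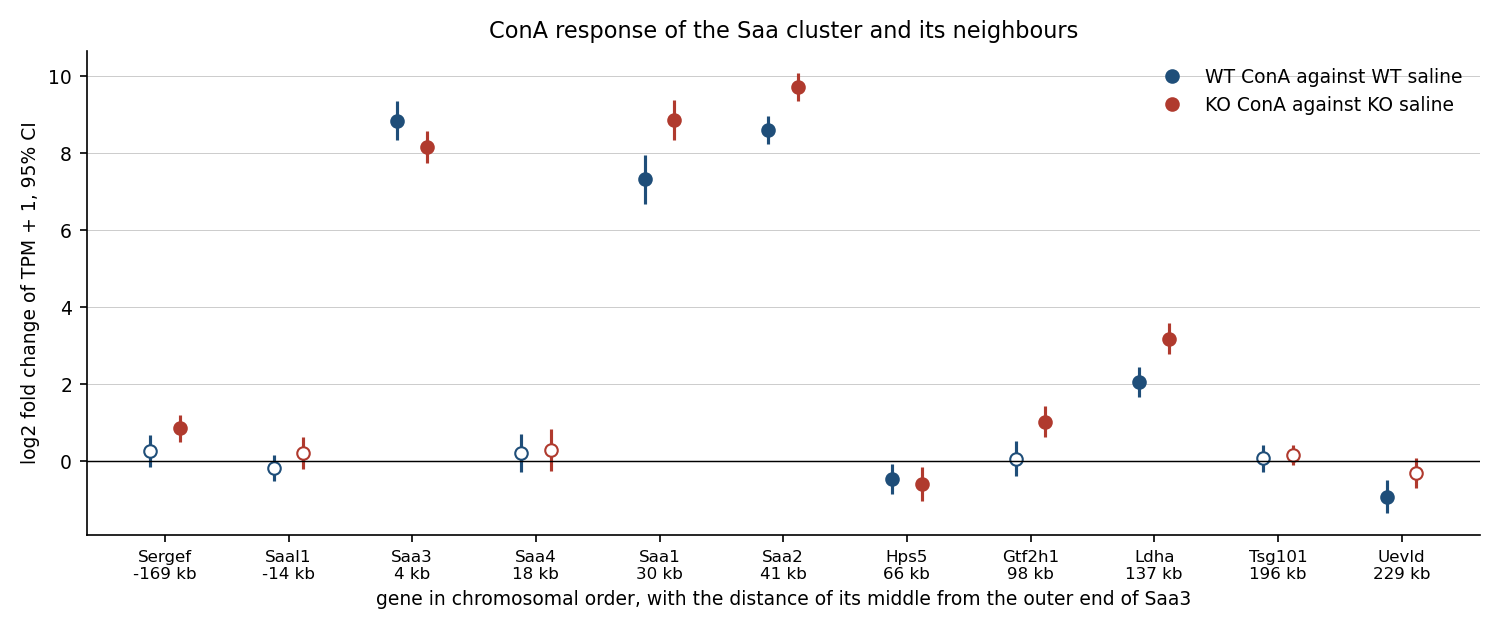
Log2 fold changes of TPM + 1 after ConA with 95% confidence intervals for the 4 members and 7 neighbouring genes in chromosomal order, WT in blue and KO in red, filled where called. Saa1, Saa2 and Saa3 stand at 7.32 to 9.72, whereas Saa4 between them and Saal1 beside them lie near 0 and Ldha lies at 2.06 and 3.18.

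Genes whose profile over the 14 libraries was nearest to each member were found by the root mean square difference of log2(TPM + 1), after centring each gene on its WT saline mean, among 11326 genes. For Saa1 these were Lcn2 (difference 0.68), Cxcl10 (0.82) and Serpina3f (0.83). For Saa2 the nearest was Cxcl9 (0.49), and Saa3 (0.79) was also among the nearest 3. For Saa3 the nearest were Cxcl9 (0.59) and Saa2 (0.79). Cxcl9, a chemokine for T cells, went from 7.03 to 10.3 TPM in WT saline to 2487 to 4080 TPM in WT ConA livers, at levels well below those of Saa2. Saa2 and Saa3 were thus in each other's lists, while Saa1 was not in either. For Saa4 the nearest genes were Upf3b (0.38), Brpf3 (0.38) and Rnf169 (0.38), each under 12 TPM in every library.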

How the data were processed

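Per the labels and the study's methods, total liver RNA was sequenced on a BGISEQ-500 (single-end, 50 bases). The methods name STAR and HTSeq, while the submitters' processing notes name Bowtie2, RSEM 1.3.1 and GRCm38.p6. The authors deposited TPM for 17656 genes per library, summing to 1000000. TPM holds no read depth, so no counting error can be given, and the number of mice limits the precision.

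All 14 libraries were grouped by their labels. Linear models of log2(TPM + 1) were fitted in R 4.3.3 by limma 3.58.1, with an eBayes trend, to genes reaching TPM of 1 in a number of libraries equal to the smaller group (3 for the interaction). On this scale changes of low genes are understated. The procedure was tested on simulated data. Sequences came from RefSeq and GENCODE tables of GRCm38.p6 (17604 of 17656 gene IDs matched RefSeq) and were compared with Biopython 1.88.

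Named were the 4 members, Ythdf1, the largest changes and genotype calls of 7 pathway lists, the neighbours within 200 kb, the 3 genes nearest in profile and 14 further genes of the pathway. A gene near in profile is not reported here. Members and lists were chosen with earlier results of these data known. The settings varied were the pseudocount (0.1), the filter (TPM of 5, or none), median ratio scaling, the members taken out of the total, robust eBayes, a replicate block, all 14 libraries in a fit, WT saline replicates 2 and 3 averaged, the ConA libraries numbered 3 left out, and each library left out. Samples with the same number did not deviate together in every case, so they were not taken as pairs, and the replicate block is the alternative. Correlations of ConA with saline libraries were -0.19 to 0.15 (WT) and -0.05 to 0.11 (KO). Those of KO with WT libraries were -0.0022 to 0.34 (saline) and -0.0071 to 0.41 (ConA), highest for the ConA libraries numbered 3.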

Additional observations from a re-analysis of the deposited data

Results flagged for a closer look

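Saa2 in WT ConA livers was singled out because 1 of its 4 values stood apart. Replicate 1, at 42234 TPM, lay below the other values of 49127 to 49917 TPM, and its gap took up a share of 0.905 of the group's range on the log2 scale. This gap lay above a cut-off that is passed by chance in about 1 of 20 sets of 4 values. In all 14 sets were examined, and they overlapped. They were each member, the family's sum, and the ratios of Saa2 and Saa3 to Saa1, in the WT and KO ConA livers. The same liver was also the lowest of its group for Saa1 and Saa3.

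Saa1 and Saa2 were singled out because their ConA responses were called different between the genotypes by limma's interaction test. The rise was larger in KO livers by 1.54 on the log2 scale for Saa1 and by 1.12 for Saa2. Both calls ended with WT saline replicates 2 and 3 averaged and with median ratio scaling. Of 23 alternatives, 15 ended the call of Saa1 and 6 that of Saa2. Between KO ConA and WT ConA livers neither gene was called different (log2 fold change 0.10 and 0.06).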

How the results depend on the processing

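The rises of Saa1, Saa2 and Saa3 after ConA were called under all 17 alternatives in WT (log2 fold change 7.10 to 9.03) and all 16 in KO (7.91 to 9.93), and Saa4 was called under none (adjusted p at least 0.0656). Of 352 refits of a member, 298 kept direction and call, 43 lost the call, 1 gained it and 10 changed sign. The causes of these changes were not tested.

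Between KO and WT saline, 2009 genes were called as reported, 584 with no filter, 332 with all 14 libraries in the fit, 49 after averaging WT saline replicates 2 and 3, and 45 to 2739 with a library left out. Saa1 (-1.44) lost its call with no filter and with robust eBayes, with median ratio scaling (-1.36) and with the averaged libraries (-1.65), and lay at -1.80 to -1.02 with a library left out. Saa2 (-1.06) lost it with no filter and with the averaged libraries (-1.15), and lay at -1.27 to -0.89. Saa4 (-0.93) lost it with no filter, with all 14 libraries and with the averaged libraries (-1.04), and lay at -1.06 to -0.70. Saa1 lost its call without any library but KO saline replicate 2, Saa2 without WT saline replicate 2 or 3 or KO saline replicate 1, and Saa4 without these or KO saline replicate 2.

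Between KO and WT ConA, 45 genes were called as reported, 4 with no filter, 27 with median ratio scaling, 640 with all 14 libraries and 5 to 52 with a library left out. Saa2 turned to -0.034 with median ratio scaling and lay at -0.0013 to 0.079 with a library left out, and Saa3 lay at -0.32 to 0.021. Saa4 (-0.85) was called with all 14 libraries.

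The interaction called 541 genes as reported, 328 with no filter, 28 with the averaged libraries, 1591 without the ConA libraries numbered 3 and 22 to 769 with a library left out. Saa1 (1.54) lost its call with no filter, with median ratio scaling (1.41) and with the averaged libraries (1.75), and lay at 1.13 to 1.90. Saa2 lost it with median ratio scaling (0.98) and with the averaged libraries (1.20), and lay at 0.95 to 1.33. Saa4 turned to -0.059 with median ratio scaling and lay at -0.15 to 0.28. That scaling moved the median interaction of all genes from 0.14 to 0.03.

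A replicate block ended the calls of Saa1 in the saline comparison (-1.44, adjusted p = 0.0520) and in the interaction (1.54, adjusted p = 0.0622), and it called 140 genes between KO and WT ConA and 358 in the interaction. It changed no other call of a member.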
